A study of Mus musculus with 4 samples.

Results

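To see how the liver transcriptome of 9 month-old mice differed from that of 3 month-old mice, the gene counts of both ages were set against each other. The mice were untreated male C57BL/6Rj animals (strain C57BL6 in the labels), kept with free access to food and a light-dark cycle, and liver was the only tissue. Each age was represented by 1 pool of RNA from 24 mice, made of 4 mice at each of 6 times of the day, so that daily rhythms were averaged within a pool. Pools of 15 and 21 month-old mice, made in the same way, completed the 4 libraries and are given beside the named genes. Because there was 1 pool per age, neither the spread between mice nor that between libraries could be measured, no p-value is given, and all intervals cover counting error only. The comparison held 5613 genes with at least 20 counts summed over the 3 and 9 month pools, out of 33924 gene symbols in the files and 13715 symbols with a count in either pool. Just inside this limit lay 337 genes with 20 or 21 counts, and just outside it 373 genes with 18 or 19 counts.

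The liver is built mainly of hepatocytes, which make most plasma proteins, turn dietary sugar into fat, break down amino acids and dispose of the ammonia as urea, and detoxify drugs and metals. Between 3 and 9 months a mouse passes from young adulthood to the approach of middle age. Uncapped RNA was digested before linkers were added, so that the counts come mostly from the starts of capped transcripts: messenger RNAs, and also small nuclear and nucleolar RNAs that carry their own cap. The 3 month pool gave 955934 gene counts and the 9 month pool 958586, whereas the 15 and 21 month pools gave 525772 and 735962. Depth thus hardly differed between the 3 and 9 month pools. Ratios of 9 over 3 months were scaled with TMM factors (a scaling in which most genes are taken as unaltered), and levels are given on the same scale as counts per 1000000 (CPM).

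The markers of the labelled tissue were present in both pools. The 6 hepatocyte markers, albumin (Alb) among them, summed to 78272 CPM at 3 months and 85681 at 9 months. The 3 fat and the 3 muscle markers had no count in any pool, and the 3 B cell, 3 T cell and 3 neutrophil markers had at most 6 counts per cell type in either pool. The 5 markers of exocrine pancreas, an organ that lies next to the liver, summed to 38 counts at 3 months and 18 at 9 months. Of 3 pancreatic genes with enough counts to compare, the digestive enzyme precursor Ctrb1 alone passed the call described next, with 26 counts at 3 months and 6 at 9 months (ratio 0.242, 95% interval from 0.0814 to 0.601).

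A gene was called higher or lower when its ratio was past 2-fold and the exact 95% interval of the ratio lay off 1. By this rule 392 genes (6.98% of those compared) were higher at 9 months and 398 (7.09%) were lower. The interval alone, without the fold, lay above 1 for 771 genes (13.7%) and below 1 for 775 (13.8%), which is called here beyond counting noise. The fold alone, without the interval, was reached upwards by 474 genes (8.44%) and downwards by 505 (9.0%). The median log2 ratio over all 5613 genes was 0.01, and 4634 genes (82.6%) stayed within 2-fold. The middle 90% of the ratios ran from 0.407 to 2.48.

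The pools differed by more than counting noise at every depth. Among the 2760 genes with 20 to 49 counts, the log2 ratios had a robust SD of 0.87, whereas counting alone gives 0.55. Among the 119 genes with 2000 counts or more the robust SD was 0.38, against 0.04 from counting, and 80.7% of these genes had an interval off 1. An interval off 1 is therefore common for well-counted genes, and a list of well-counted genes holds more of them than the share over all genes. The 2-fold call was rarer there, with 6 of these 119 genes called, and 561 of the 790 calls came from genes with fewer than 50 counts.

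**Figure D1:**
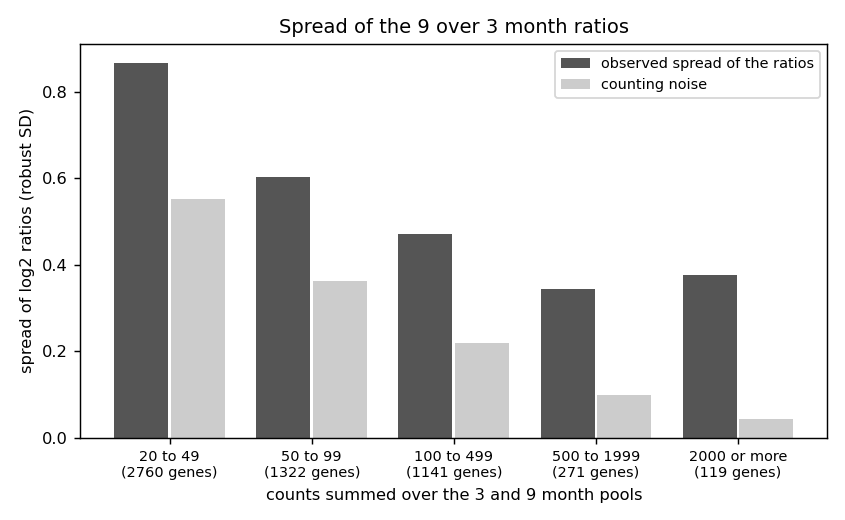
Robust SD of the log2 ratio of 9 over 3 months (y axis) in 5 classes of counts summed over both pools (x axis), with 1 pool per age; dark bars show the observed spread and light bars the part that counting gives. The observed spread falls from 0.87 to 0.38 while counting noise falls from 0.55 to 0.04, so the dark bar is the taller one in every class.

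The largest ratio among genes with more than 100 counts belonged to the metallothioneins. These small cysteine-rich proteins bind zinc, copper and cadmium, and their genes are switched on by metals, glucocorticoids and inflammation. Metals act through the transcription factor MTF-1, which binds metal response elements in the promoter. The promoters of Mt1 and Mt2, and that of the zinc exporter Slc30a1 as a further gene known to respond to zinc, are printed to show the core of that element. The sequences are those of RefSeq on GRCm38.p6, all on the + strand, from 250 bases before to 50 bases after the start of the gene, and capitals mark matches to TGCACNC or TGCGCNC on either strand. They lie at chr8:94178839-94179138 for Mt1, chr8:94172368-94172667 for Mt2 and chr1:191906531-191906830 for Slc30a1.
Mt1 promoter: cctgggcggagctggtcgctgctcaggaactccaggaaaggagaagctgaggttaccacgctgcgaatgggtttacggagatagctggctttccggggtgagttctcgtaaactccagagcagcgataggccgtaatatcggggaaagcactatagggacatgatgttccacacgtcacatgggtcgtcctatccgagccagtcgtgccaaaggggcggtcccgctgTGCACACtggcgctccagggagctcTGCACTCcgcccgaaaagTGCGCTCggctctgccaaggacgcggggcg
Mt2 promoter: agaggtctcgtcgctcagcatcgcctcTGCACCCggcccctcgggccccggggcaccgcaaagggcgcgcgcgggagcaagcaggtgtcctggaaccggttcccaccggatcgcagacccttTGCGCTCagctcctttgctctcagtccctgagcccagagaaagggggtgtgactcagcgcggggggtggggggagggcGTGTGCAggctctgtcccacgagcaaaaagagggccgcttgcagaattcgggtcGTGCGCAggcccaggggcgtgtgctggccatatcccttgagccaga
Slc30a1 promoter: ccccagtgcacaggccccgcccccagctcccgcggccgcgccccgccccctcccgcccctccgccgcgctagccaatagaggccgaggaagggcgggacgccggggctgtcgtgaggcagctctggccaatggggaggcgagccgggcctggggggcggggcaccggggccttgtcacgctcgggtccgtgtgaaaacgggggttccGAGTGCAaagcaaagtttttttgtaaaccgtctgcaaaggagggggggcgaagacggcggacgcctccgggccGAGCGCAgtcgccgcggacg

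The Mt1 promoter held 3 matches, the Mt2 promoter 4 and the Slc30a1 promoter 2. Of the 32851 promoters in the table, 25.7% held at least 1 match, 7.11% at least 2, 1.97% at least 3 and 0.517% at least 4. A match is a description of the letters only. Mt2 had 5 counts at 3 months and 279 at 9 months, a ratio of 58.5 (95% interval from 24.8 to 181). Mt1 had 135 counts at 3 months and 1335 at 9 months, a ratio of 10.4 (from 8.67 to 12.5). On the level scale, Mt1 stood at 141, 1463, 229 and 312 CPM in the pools of 3, 9, 15 and 21 months, and Mt2 at 5.23, 306, 25.4 and 67.8 CPM. For both genes the 9 month pool was the highest of the 4 and the 3 month pool the lowest. In the annotation of the authors' build (mm9) both are protein-coding genes on the + strand, Mt1 at chr8:96702989-96704225 and Mt2 at chr8:96696518-96697467.

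No other gene of zinc handling was called higher. Of the 11 members compared, 2 were higher (Mt1 and Mt2) and 2 were lower, with a median log2 ratio of -0.52, beside 0.01 over all genes. The lower ones were the intestinal-type zinc importer Slc39a4, with 100 counts at 3 months and 33 at 9 months (ratio 0.346, from 0.226 to 0.517), and the Golgi zinc transporter Slc30a5, with 24 and 7 counts (0.306, from 0.111 to 0.731). Slc30a1 had 33 and 22 counts and a ratio of 0.698, and Mtf1, which encodes MTF-1, had 22 and 14 counts and a ratio of 0.667. Neither of these was separated from 1 by its interval.

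Genes of the glucocorticoid and fasting response, of the acute phase and of the immediate early response are given next. What lay behind the Mt1 and Mt2 ratios was not tested. Of 23 glucocorticoid and fasting genes, none was higher and 2 were lower, 5 lay above and 4 below counting noise, and the median log2 ratio was -0.19. The lower genes were Fkbp5, a chaperone partner of the glucocorticoid receptor, with 37 and 15 counts (ratio 0.425, from 0.217 to 0.793), and Pdk4, a kinase that restrains pyruvate use in fasting, with 19 and 6 counts (0.331, from 0.108 to 0.862). Tyrosine aminotransferase (Tat), a classical glucocorticoid target, had 743 and 1053 counts and a ratio of 1.48 (from 1.35 to 1.63). Among 22 acute phase genes none was higher, 1 was lower (Hamp2, with 18 and 6 counts), and the median log2 ratio was 0.04. Of 7 immediate early genes 2 were higher, namely Zfp36, which destabilises messenger RNAs, with 62 and 156 counts (ratio 2.64, from 1.95 to 3.60), and Ier3 with 7 and 18 counts (2.69, from 1.07 to 7.63).

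**Figure D2:**
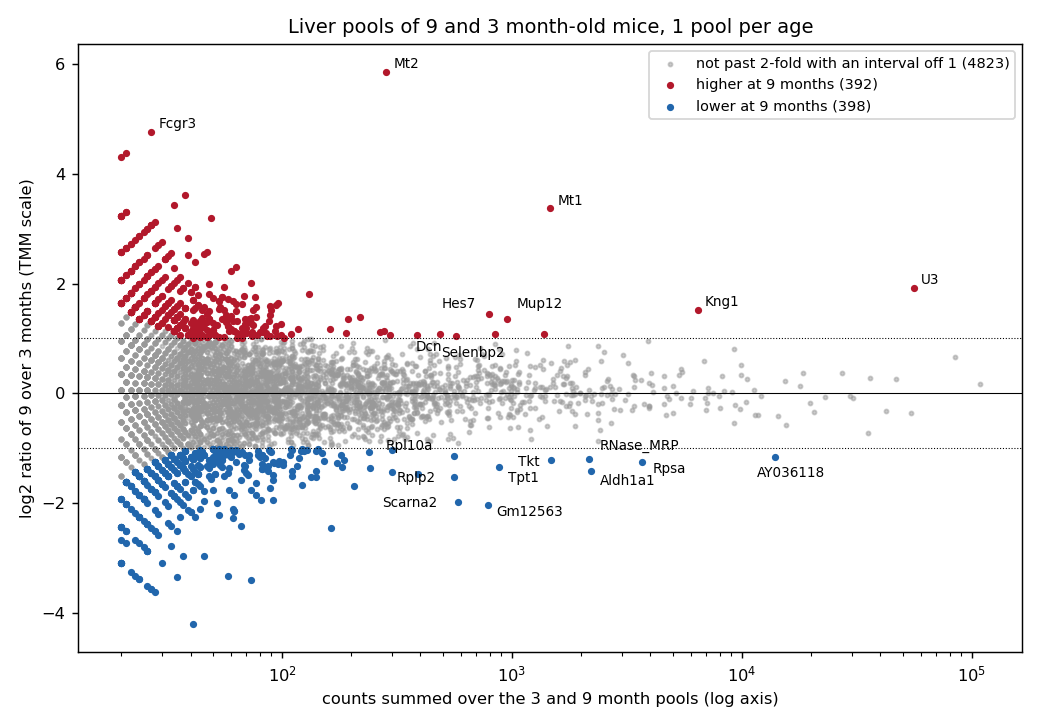
Log2 ratio of 9 over 3 months (y axis) against the counts summed over both pools (x axis, log scale) for 5613 genes, each a dot; red marks the 392 genes called higher, blue the 398 called lower, and dotted lines 2-fold. Most called genes with 500 counts or more, Mt2 and Fcgr3 are named; most called genes lie at the left, under 50 counts, whereas Mt1, U3 and Kng1 stand apart at high counts.

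A second strong rise was that of U3, a box C/D small nucleolar RNA that is transcribed from genes of its own, carries a cap and is needed to cut the 18S ribosomal RNA out of its precursor. U3 had 12112 counts at 3 months and 43933 at 9 months, a ratio of 3.80 (from 3.72 to 3.88), and took 1.27% of the gene counts of the 3 month pool and 4.58% of those of the 9 month pool. Its levels were 12670, 48152, 7917 and 16794 CPM in the same order of ages, with the 9 month pool highest. The symbol stands for 47 loci in the annotation of mm9, so the counts cannot be assigned to 1 gene. The first 35 bases, as long as a read, take 19 forms over these loci, of which 15 loci have a form found once in the genome and 32 a form found more than once. Printed here are the form of a full-length locus that is found once, at chr10:39978273-39978484 on the + strand, and the form shared by 9 loci and found at 10 places, among them chr11:87256739-87256952 on the + strand. They differ at 1 base. The numbers of places are exact matches, whereas the authors' mapping allowed roughly 1 mismatch. Whether reads of the form found once were counted as unique was not tested.
U3 form found once: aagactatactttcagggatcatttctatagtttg
U3 form found at 10 places: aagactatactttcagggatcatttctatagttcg

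Reads that match the shared form exactly fit 10 places equally well, and alignments that were not unique were left out of the gene counts. The share of alignments that were not unique was 72.2% at 3 months and 76.7% at 9 months, and what part of this was U3 was not tested. As a class, annotated small nucleolar RNAs took 7.18% of the counts at 3 months and 12.6% at 9 months, and protein-coding genes 80.9% and 76.2%. This class held 68595 counts at 3 months and 120396 at 9 months, U3 included. Most of its gain came from U3, with 12112 and 43933 counts, and Snord13, with 33581 and 50667.

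The other capped and nucleolar RNAs moved in both directions. Snord13, also called U13, which has its own promoter too, had 33581 counts at 3 months and 50667 at 9 months (ratio 1.58, from 1.56 to 1.60). The splicing RNA U1, with 206 loci, had 21923 and 24928 counts (ratio 1.19, from 1.17 to 1.21), and U12 of the minor spliceosome had 29 and 4 counts (0.145, from 0.0369 to 0.412). Of 81 small nucleolar RNAs apart from U3, 8 were higher and 9 lower, and their median log2 ratio was 0.03.

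Several of the lower ones belonged to the genes with the firmest calls. Scarna2, a guide RNA of the Cajal body, had 470 counts at 3 months and 114 at 9 months (ratio 0.254, from 0.205 to 0.312). Snora78 had 139 and 24 counts (0.181, from 0.112 to 0.280), Snora68 had 67 and 6 (0.0938, from 0.0333 to 0.215) and Snord35b had 26 and 2 (0.0806). All 4 had their highest level in the 3 month pool. RNase_MRP, the RNA of an enzyme that cuts precursor ribosomal RNA and that is annotated at 2 loci, had 1521 and 631 counts (0.435, from 0.396 to 0.477).

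Transcripts of RNA polymerase III, which mostly lack the cap of messenger RNA, were rather lower at 9 months. Of 17 compared, 5 were lower and 1 higher, 10 lay below and 2 above counting noise, and the median log2 ratio was -0.52. The 5S ribosomal RNA copy n-R5s136 had 1550 counts at 3 months and 814 at 9 months (ratio 0.550, from 0.505 to 0.599), whereas n-R5s209 went from 11 to 52 counts (4.95, from 2.55 to 10.5). The RNA 7SK, with 331 loci, had 1238 and 1280 counts (1.08). 5S copies are near-identical, so their split between loci is uncertain. AY036118, annotated as a pseudogene at chr17:39985048-39985772 in mm9, had 9725 and 4146 counts (0.447, from 0.431 to 0.463).

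Of the protein-coding genes called higher, Kng1 had the most counts over both pools. It encodes kininogen, the liver-made precursor of bradykinin and a cofactor of contact activation. Kng1 had 1719 counts at 3 months and 4701 at 9 months (ratio 2.87, from 2.71 to 3.03), and its levels of 1798, 5153, 4038 and 3628 CPM at 3, 9, 15 and 21 months put the 3 month pool lowest. Its paralog Kng2 had 97 and 117 counts (ratio 1.26). Reads shared by both copies are not counted, so the split between them is uncertain. Fcgr3, an immunoglobulin receptor of macrophages, had 1 count at 3 months and 26 at 9 months (ratio 27.2, from 4.48 to 1117).

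The remaining genes with the firmest calls upwards had few counts in the 3 month pool. Rb1cc1, a starter of autophagy, had 3 and 35 counts (ratio 12.2, from 3.85 to 62.1), and Lect1, a secreted inhibitor of vessel growth, had 5 and 44 (9.22, from 3.67 to 29.8). The mitochondrial ribosomal protein gene Mrpl49, which overlaps Syvn1 on the other strand, had 3 and 31 counts (10.8, from 3.38 to 55.3). Wdfy4, Srp9, Plekhm3, Med14, Nt5c2, Mut and Ndufb11 completed this group, with 1 to 7 counts at 3 months and 19 to 40 at 9 months. At 15 and 21 months Srp9, a subunit of the signal recognition particle, had no count.

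The firmest calls downwards likewise rested mostly on few counts. Zfp62, a zinc finger gene, had 21 counts at 3 months and none at 9 months, at least 6.68-fold lower against a floor of 3 counts in the 9 month pool (4.97-fold at the lower bound of the exact 95% interval). Uck1, which phosphorylates uridine and cytidine, had 20 counts and none, at least 6.36-fold lower by the same floor (4.71-fold at the lower bound). The transcription factor Atf2 had 39 and 2 counts (ratio 0.0537, from 0.00629 to 0.208). Emilin1, a protein of elastic fibres, had 53 and 5 counts (0.0988, from 0.0308 to 0.245), and Samhd1, which degrades nucleotides, had 41 and 5 (0.128, from 0.0394 to 0.323). Coq9, needed for ubiquinone synthesis, had 32 and 3 counts (0.0982, from 0.0192 to 0.314), and Scamp2, Zfp574 and Phc2 had 25 to 33 counts at 3 months and 2 to 4 at 9 months.

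Of the 790 called genes, 18 had 500 counts or more over both pools, and these were named because of their counts. Upwards these included Mt1, U3, Kng1, Hes7, Mup12, Selenbp2 and Dcn. Downwards these were Gm12563, Scarna2, Rplp2, Aldh1a1, Tpt1, Rpsa, Tkt, RNase_MRP, AY036118 and Rpl10a. The selenium-binding protein gene Selenbp2 had 279 and 564 counts (ratio 2.12, from 1.83 to 2.45). Its levels at 15 and 21 months, 276 and 281 CPM, lay near the 292 of the 3 month pool. Hes7, a transcriptional repressor known from the segmentation of the embryo, had 219 and 573 counts (2.74, from 2.34 to 3.22). Its exons overlap 9130213A22Rik on the other strand, and without a stated strand setting reads of both cannot be told apart. The called genes Rb1cc1, Nt5c2, Mut, Uck1, Coq9, RNase_MRP, Acot4, Pltp, Egfl7, Timp3, Usp2 and Dnaja1 likewise overlap a gene on the other strand, and Tkt and Sfpq one on their own strand. Downwards, Aldh1a1, which makes retinoic acid from retinal, had 1627 and 583 counts (0.375, from 0.341 to 0.413) and levels of 1702, 639, 1797 and 1251 CPM at 3, 9, 15 and 21 months, with the 9 month pool lowest.

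**Figure D3:**
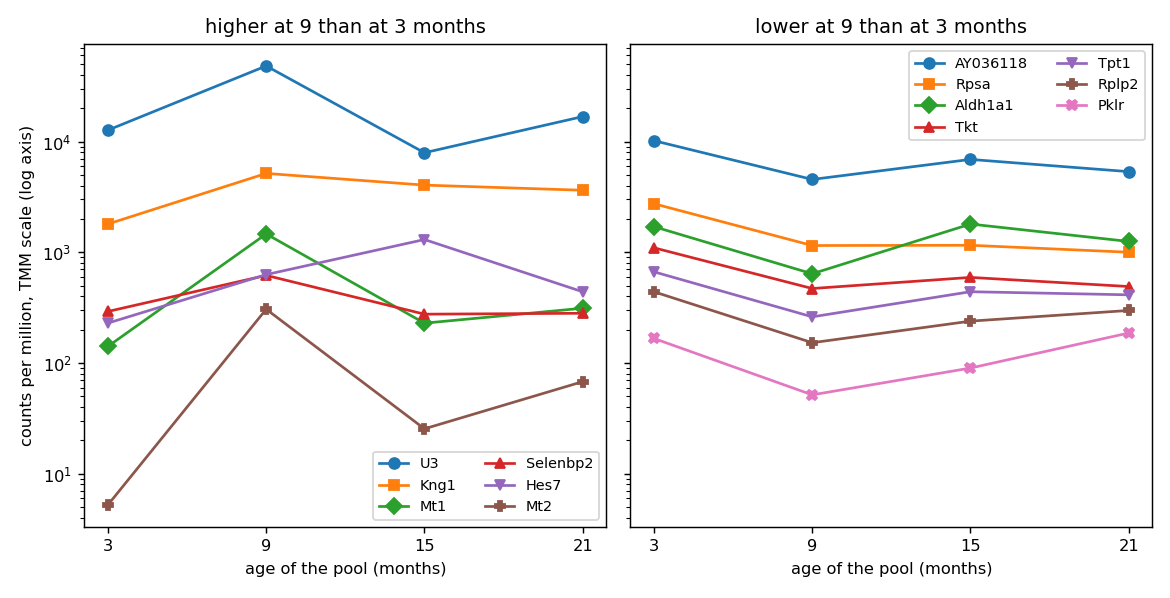
Level in CPM (y axis, log scale) in the pools of 3, 9, 15 and 21 months (x axis; 1 pool per age, no error bars) for genes called higher (left) and lower (right) at 9 than at 3 months. Of the genes on the left all but Hes7, which is highest at 15 months, are highest at 9 months, and of those on the right all but Rpsa, which is lowest at 21 months, are lowest at 9 months.

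Fatty acid synthesis genes leaned downwards in the 9 month pool. Of 23 genes compared, none was higher and 3 were lower, 9 lay below counting noise and none above it, with a median log2 ratio of -0.15. Scd1, the desaturase that makes oleate and the most counted of them, had 22386 counts at 3 months and 12989 at 9 months (ratio 0.608, from 0.595 to 0.621). Its levels were 23418, 14236, 15714 and 21327 CPM at 3, 9, 15 and 21 months.

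The 3 lower genes were Pklr, Acacb and Me1. Pklr, the liver pyruvate kinase that carries out the last step of glycolysis, had 159 and 47 counts (0.310, from 0.219 to 0.431). Acacb, the acetyl-CoA carboxylase that restrains fatty acid oxidation, had 108 and 44 (0.427, from 0.294 to 0.611), and malic enzyme Me1, a source of NADPH, had 84 and 39 (0.486, from 0.324 to 0.719). Pklr overlaps Hcn3 on the other strand and Me1 overlaps a noncoding transcript. Fatty acid synthase (Fasn) had 890 and 765 counts (0.901, from 0.817 to 0.993). The regulators pointed less clearly, with Srebf1 at 0.760 (from 0.584 to 0.986) and Mlxipl, which encodes the carbohydrate-responsive factor ChREBP, at 1.02 and not separated from 1.

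Genes of glucose production and use showed a similar lean. Of 28 genes none was higher, 3 were lower (Pklr, Tkt and Pfkl), 4 lay above and 12 below counting noise, and the median log2 ratio was -0.27. Transketolase (Tkt) of the pentose phosphate pathway had 1048 and 429 counts (0.429, from 0.382 to 0.480), and the 6-phosphofructokinase Pfkl had 25 and 11 (0.461, from 0.205 to 0.971). Fbp1 of gluconeogenesis had 1218 and 893 counts (0.768, from 0.704 to 0.838).

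The exceptions were genes of glucose sensing and entry, of glycogen and of gluconeogenesis. Gckr, which regulates the first step of glucose use, had 44 and 81 counts (1.93, from 1.32 to 2.85), the glucose transporter Slc2a2 had 354 and 486 (1.44, from 1.25 to 1.65) and Pck1 had 877 and 954 (1.14, from 1.04 to 1.25). Ppp1r3b, which brings a phosphatase to glycogen, had 132 and 168 (1.33). These 4 genes lay beyond counting noise but did not reach 2-fold.

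Genes of fatty acid oxidation and ketogenesis were called lower 4 times and higher 1 time among 40, with 11 below and 4 above counting noise and a median log2 ratio of -0.17. The lower genes were Cyp4a14 with 106 and 35 counts (0.346, from 0.229 to 0.511), Cyp4a10 with 36 and 16 (0.466, from 0.241 to 0.861), Acot4 with 19 and 5, and Pdk4. Both cytochromes are hydroxylases of fatty acids and known targets of PPARα, whose own gene Ppara had a ratio of 0.795 and was not separated from 1. The carnitine carrier Slc25a20 was higher, with 22 and 48 counts (2.29, from 1.35 to 3.98).

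Amino acid breakdown genes leaned the other way. Of 44 genes of amino acid and one-carbon metabolism none was called in either direction, but 17 lay above and 6 below counting noise, and the median log2 ratio was 0.16. Well counted members were Mat1a, which makes S-adenosylmethionine, with 2095 and 2491 counts (1.25, from 1.18 to 1.32), Hpd (1.14, from 1.07 to 1.22) and Fah (1.09, from 1.01 to 1.18). Cth, which makes cysteine from cystathionine, had the largest ratio, with 133 and 240 counts (1.89, from 1.52 to 2.35). Csad, which leads cysteine to taurine, lay below, with 869 and 545 counts (0.657, from 0.589 to 0.732).

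The urea cycle, which takes up the nitrogen of these reactions, was similar. None of its 13 genes was called, while 5 lay above and 1 below counting noise, with a median log2 ratio of 0.21. With library totals, DESeq2 size factors or the geometric mean as scale, 5 lay above and 3 below. Carbamoyl phosphate synthetase (Cps1) had 2790 and 4021 counts (1.51, from 1.44 to 1.59), and its levels of 2919, 4407, 2941 and 3558 CPM at 3, 9, 15 and 21 months made the 9 month pool the highest. Otc had 613 and 863 counts (1.48, from 1.33 to 1.64), Ass1 had 2376 and 3069 (1.35, from 1.28 to 1.43) and ornithine aminotransferase Oat had 304 and 543 (1.87, from 1.62 to 2.16). Glutamate dehydrogenase (Glud1) lay below, with 775 and 537 counts (0.726, from 0.649 to 0.811).

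**Figure D4:**
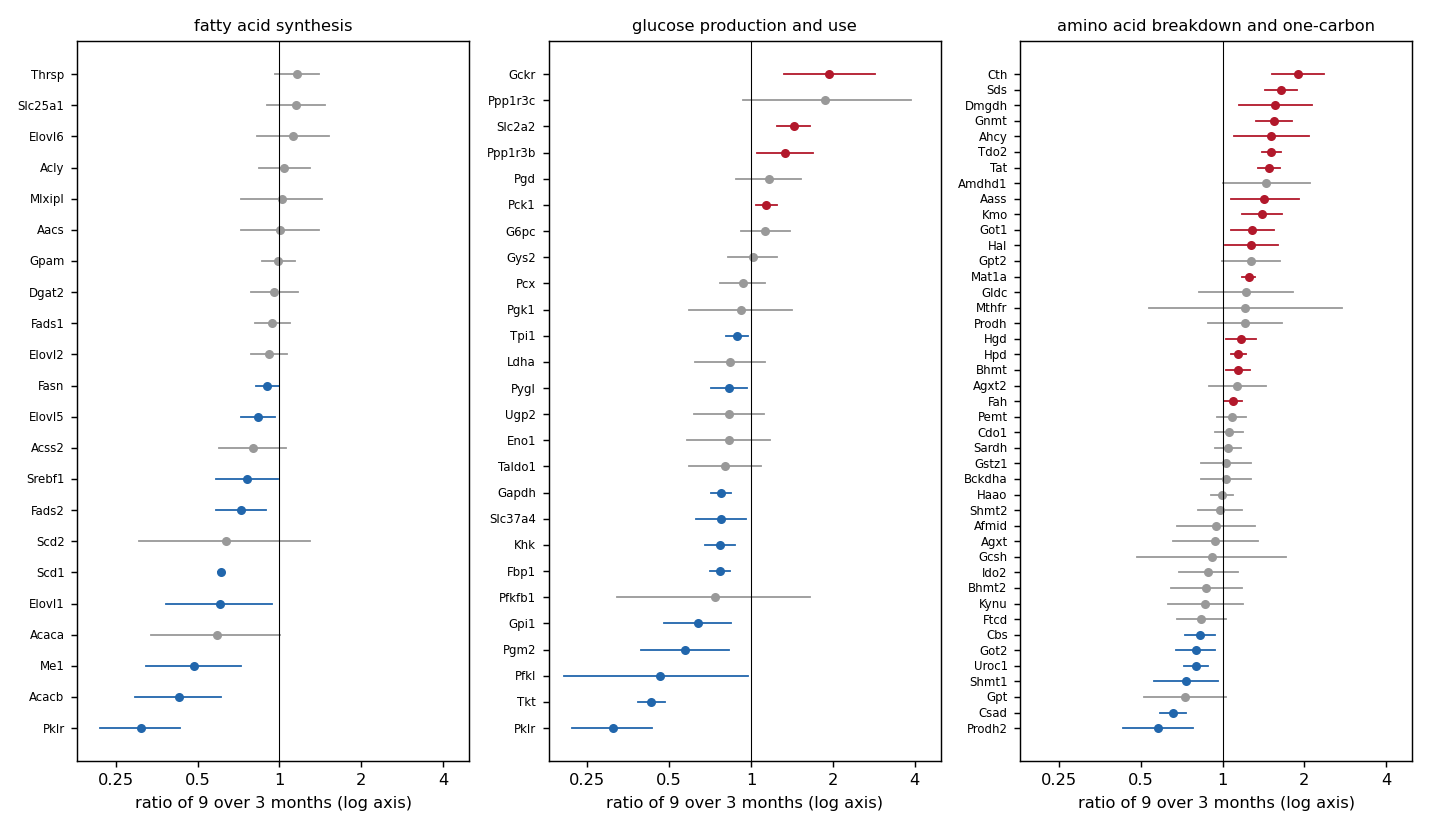
Ratio of 9 over 3 months (x axis, log scale) with its exact 95% interval (counting error only, 1 pool per age) for genes of fatty acid synthesis, of glucose production and use and of amino acid and one-carbon metabolism (y axis), without a few that are not reported here; red intervals lie above 1, blue below 1, grey include 1. No interval of the first group lies above 1, and its lowest ratio is that of Pklr at 0.310, whereas the third group reaches up to 1.89 for Cth.

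Cholesterol genes showed no common direction, and bile acid genes lay above counting noise more often than below it. Of 25 genes of cholesterol synthesis and uptake, 1 was higher (mevalonate kinase, Mvk, with 9 and 24 counts) and none lower, with 4 above and 5 below counting noise and a median log2 ratio of -0.08. Of 23 bile acid genes, 2 were higher and none lower, and 7 lay above and 2 below counting noise, with a median log2 ratio of 0.07 that turned to just under 0 with library totals. They were the oxysterol hydroxylase Cyp39a1, with 17 and 40 counts (2.47, from 1.37 to 4.64), and the organic anion carrier Slco1a4, with 29 and 57 (2.06, from 1.29 to 3.34), which dropped under 2-fold when the ratio was scaled to library totals. The rate-limiting enzyme of bile acid synthesis, Cyp7a1, had 60 and 70 counts and was not separated from 1.

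Detoxification genes mostly stayed within 2-fold. Of 25 cytochromes of families 1 to 3, Cyp2c54 was higher with 51 and 110 counts (2.26, from 1.61 to 3.21) and Cyp2c38 lower with 57 and 16 (0.294, from 0.158 to 0.519), and the median log2 ratio was 0.02. Close relatives in the Cyp2c cluster share sequence, so their counts are uncertain. The ethanol-metabolising Cyp2e1 had 12112 and 15003 counts (1.30, from 1.27 to 1.33). Of 16 glucuronosyl- and sulfotransferases none was called, but 7 lay above counting noise and none below, with a median log2 ratio of 0.27.

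Among 18 glutathione transferases, 1 was higher (Gstp2, with 7 and 21 counts) and none lower. Gstp1, which shares sequence with it, had 9437 and 6068 counts (0.674, from 0.652 to 0.696). Glutathione reductase (Gsr), which renews glutathione, was lower with 60 and 22 counts (0.384, from 0.224 to 0.636), and catalase (Cat) had 2205 and 1749 (0.831, from 0.780 to 0.885). In all, of 29 antioxidant and selenoprotein genes 1 was higher (Selenbp2) and 1 lower (Gsr).

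Secreted proteins other than kininogen changed little in relative terms, although their high counts set most of them off from 1. Albumin (Alb) had 52169 counts at 3 months and 55731 at 9 months (1.12, from 1.11 to 1.13), and fetuin-A (Ahsg) had 31088 and 23220 (0.783, from 0.769 to 0.796). The α1-antitrypsin gene Serpina1e had 24059 and 18403 counts (0.801, from 0.786 to 0.817). Of 30 genes of plasma carriers and proteinase inhibitors, Kng1 was the 1 gene called, with 8 above and 10 below counting noise and a median log2 ratio of -0.04.

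The fibrinogen chains, which are assembled into 1 protein, did not move together. Fgb had 8233 and 10178 counts (1.30, from 1.26 to 1.33), whereas Fga had 5478 and 4301 (0.823, from 0.790 to 0.856) and Fgg had 2056 and 1705 (0.869). Of 27 complement genes, C4a, with 4 and 24 counts, and properdin (Cfp), with 15 and 30 and under 2-fold with library totals, were higher and none was lower, but C4a is a near copy of C4b, which had 565 and 399. Of 22 apolipoprotein and VLDL genes 1 was lower, the phospholipid transfer protein gene Pltp with 23 and 9 counts (0.410, from 0.167 to 0.920). Apolipoprotein B (Apob) had a ratio of 0.787 and its loading factor Mttp one of 0.589, both beyond counting noise.

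Major urinary proteins, carriers of male scent molecules that growth hormone pulses maintain, leaned upwards. Of 10 genes compared 2 were higher and none lower, 7 lay above counting noise and none below, with a median log2 ratio of 0.33. Mup12 had 277 and 679 counts (2.57, from 2.23 to 2.96), Mup9 had 26 and 54 (2.18, from 1.34 to 3.62), and the most counted member, Mup3, had 5692 and 5641 (1.04). These genes are near-identical copies, so the split of reads between them is uncertain. With every member counted at least 1 time the median was 0.09. Among 20 genes of growth hormone action and sex-biased expression 1 was called, C4a again, and Igf1, the main growth hormone target, had 1436 and 1358 counts (0.991).

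Transcription factors of the liver are set here beside all genes compared, of which 6.98% were called higher and 7.09% lower. Of 26 such factors and nuclear receptors none was higher and 2 were lower, with a median log2 ratio of -0.16. They were Foxa1, which opens chromatin for other factors, with 41 and 18 counts at 3 and 9 months (0.460), and Nr1h2, an oxysterol receptor, with 22 and 8 (0.381). By the interval alone 3 factors lay above and 3 below counting noise, 11.5% each way, near the 13.7% and 13.8% over all genes. Hnf4a, a master factor of hepatocytes, had 343 and 293 counts and was not separated from 1. Of 21 iron and heme genes 1 was higher, the iron regulator Hfe with 5 and 19 counts (3.98), and 1 was lower, Hamp2. Alas1, which starts heme synthesis, had 226 and 341 counts and lay above counting noise at 1.58.

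Genes of the ribosome were spread widely. Of 55 cytosolic ribosomal protein genes 4 were higher and 7 lower, beside 6.98% and 7.09% over all genes compared, so the upward calls were near that share. By the interval, 6 lay above counting noise (10.9%, beside 13.7% over all genes) and 14 below it (25.5%, beside 13.8%). The median log2 ratio was -0.10. Their summed level was 9436 CPM at 3 months and 6707 at 9 months. Rpsa, a protein of the small subunit, contributed most to this, with 2620 and 1049 counts (0.420, from 0.390 to 0.451).

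Further lower members were Rplp2 of the stalk, with 420 and 139 counts (0.347, from 0.284 to 0.421), Rpl10a with 390 and 169 (0.454, from 0.377 to 0.545), Fau with 206 and 96 (0.488, from 0.379 to 0.625) and Rps29 with 46 and 13 (0.296, from 0.147 to 0.557). Tpt1, a growth-related protein whose messenger RNA starts with the same kind of 5′ tract as those of ribosomal proteins, had 636 and 238 counts (0.392, from 0.336 to 0.456). The higher members, Rpl13a, Rps15, Rps3a and Rps3, had 4 to 30 counts at 3 months and 19 to 63 at 9 months. Ribosomal protein genes have many processed copies, and Rplp2, Rpl13a and Rps3 overlap small nucleolar RNAs, so these counts are uncertain.

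Of 42 translation factor genes 2 were higher, Eif4a1, which overlaps 2 small nucleolar RNAs, with 14 and 31 counts (2.32) and Eif2b5 with 8 and 19 (2.49, under 2-fold with library totals), and none was lower. The elongation factor Eef1a1 had 15969 and 14351 counts (0.942, from 0.921 to 0.963). Among 69 nuclear genes of the respiratory chain 6 were higher and 1 lower, 15 lay above and 9 below counting noise, and the median log2 ratio was 0.07. The 6 higher genes, a share near that over all genes, were Ndufb11, Ndufv2, Ndufs4, Ndufa1, Ndufb3 and Ndufa5, which encode subunits of complex I. They had 7 to 25 counts at 3 months and 22 to 64 at 9 months. Ndufb11 overlaps Rbm10 on the other strand, and Ndufa5 dropped under 2-fold with library totals. Ndufa4, a better counted gene of the list, had 306 and 322 counts and was not separated from 1. The lower gene, Atp5g1, encodes a membrane subunit of ATP synthase and had 124 and 49 counts (0.414, from 0.291 to 0.581).

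Proteasome and histone genes had medians below 0. Over all genes compared, 6.98% were called higher and 7.09% lower. Of 34 proteasome genes none was higher and 2 were lower, Psmb4 of the core particle with 125 and 55 counts (0.461, from 0.329 to 0.638) and Psmf1, an inhibitor of the proteasome, with 27 and 11 (0.427, from 0.191 to 0.889). None lay above and 3 below counting noise, a smaller share than over all genes, and the median log2 ratio was -0.26. Of 25 clustered histone genes 1 was higher (Hist2h4 with 17 and 46 counts) and 3 lower, with a median of -0.39. The best counted of the lower ones, the linker histone gene Hist1h1d, had 132 and 54 counts (0.429, from 0.306 to 0.593).

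Genes of Kupffer cells and of stellate cells leaned upwards, as did those that mark hepatocytes, of which 7 of 12 lay above and 3 below counting noise with a median log2 ratio of 0.29. In such bulk samples, more cells of a type and more RNA per cell cannot be told apart. Of 19 genes of Kupffer cells, the resident macrophages of the liver, 3 were higher and none lower, 7 lay above and 1 below counting noise, and the median log2 ratio was 0.65. The 7 defining Kupffer cell markers were counted in both pools and summed to 650 CPM at 3 months and 834 at 9 months. Of these, Cd5l alone gave 302 of 621 counts and 408 of 761 (ratio 1.42, from 1.22 to 1.65), so the sum mostly follows this gene. The higher genes were Fcgr3, the complement receptor Vsig4 with 17 and 43 counts (2.65, from 1.48 to 4.96) and Timd4, a receptor for dying cells, with 16 and 31 (2.03, from 1.08 to 3.97). Timd4 dropped under 2-fold with library totals and with the geometric mean. Clec4f, the lectin that marks these cells, had 131 counts in each pool, and Csf1r, the receptor they depend on, had 104 and 110.

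Genes of stellate cells and matrix leaned upwards as well. Of 18 genes 4 were higher and 1 lower, 7 lay above and 1 below counting noise, and the median log2 ratio was 0.46. The 4 defining stellate cell markers were present in both pools and summed to 315 CPM at 3 months and 581 at 9 months, of which Dcn alone gave 192 of 301 counts and 377 of 530. Decorin (Dcn), a collagen-binding proteoglycan, had 192 and 377 counts (2.06, from 1.72 to 2.46, under 2-fold with library totals), and collagen XIV (Col14a1) had 24 and 66 (2.88, from 1.78 to 4.81).

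Timp2 and Timp3, inhibitors of matrix proteases, were also higher, with 6 and 23 counts and with 16 and 32 counts, the latter under 2-fold with library totals. Lumican (Lum), a relative of decorin, was lower with 19 and 7 counts (0.386, from 0.137 to 0.959), and the fibrillar collagen gene Col1a2 had 25 and 20. Of 21 genes of sinusoidal endothelium, Lyve1, a hyaluronan receptor, was higher with 20 and 49 counts (2.57, from 1.5 to 4.56) and Egfl7 lower with 28 and 8 (0.299, from 0.118 to 0.674). In this group 4 lay above and 3 below counting noise, and the median log2 ratio was -0.09, while its 5 defining markers summed to 621 CPM at 3 months and 732 at 9 months.

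Immune genes were counted little. Of 4 class II antigen presentation genes 3 lay above counting noise and 1 of them, H2-Ab1, was higher with 19 and 41 counts (2.26, from 1.28 to 4.12). H2-Aa had 114 and 173 counts (1.59, from 1.25 to 2.03), and both genes overlap each other on opposite strands. Of 15 class I genes none was called. Of 12 interferon response genes 2 were higher, Ifih1 with 4 and 21 counts and the chemokine gene Cxcl9 with 10 and 33, and 3 were lower, Oasl2, Ifit3 and Ifi44, the last with 18 and 2. Of the erythroid genes, which mark blood left in the tissue, the β-globin gene Hbb-b1 lay above counting noise, with 865 and 1511 counts (1.83, from 1.68 to 1.99), and Alas2 of red cell heme synthesis below it, with 147 and 101 (0.720, from 0.553 to 0.934). The α-globin gene Hba-a2, with 27 and 32 counts, was not separated from 1.

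Some clock genes were past the limits, all of them with few counts. Of 22 clock and output genes 3 were higher and 3 lower, with a median log2 ratio of -0.18. Over all genes compared, 6.98% were called higher and 7.09% lower. The called clock genes all had 20 to 49 counts over both pools, a class in which 20.3% of genes were called. Their number is therefore not set apart from that of other genes with few counts. Lower were Clock, the partner of BMAL1, with 29 and 9 counts (0.325, from 0.135 to 0.706), Per3 with 18 and 6 (0.349, from 0.113 to 0.918) and Usp2 with 31 and 11 (0.372, from 0.169 to 0.760). Higher were the repressor Nr1d2 with 11 and 25 counts (2.38, from 1.13 to 5.36), the splicing factor and PER partner Sfpq with 14 and 33 (2.47, from 1.29 to 5.0), and Ccrn4l with 7 and 17. The best counted clock gene, Nr1d1, had 229 and 241 counts (1.10, from 0.916 to 1.33). Ccrn4l was called only with TMM and with protein-coding totals among the 5 scalings.

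Stress genes of the heat shock and unfolded protein response held 3 higher genes of 28 and no lower one, with a median log2 ratio of -0.13. They were Ddit3, which overlaps Mars, with 4 and 22 counts (5.76, from 1.96 to 23), Dnaja1 with 5 and 15, and Hspa1b with 11 and 24 (2.29, from 1.08 to 5.17). By the interval alone 5 genes lay above and 6 below counting noise. The latter were the chaperones Hsp90ab1 (0.855), Hspa5 (0.797) and Calr (0.743) and the mitochondrial Hspd1 (0.685), Hspe1 (0.585) and Hspa9 (0.548).

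Of the 16 genes that the study weighed as references for normalisation, 15 had enough counts, and these stayed within 2-fold. None was called, and their median log2 ratio was -0.11. Atp5h had 261 and 274 counts (1.10, from 0.925 to 1.31) and Ttr 15342 and 14125 (0.965, from 0.943 to 0.987). Thinly counted were Nono, with 8 and 13 counts (1.70, from 0.654 to 4.74), and Tprkb, with 19 and 28 (1.54, from 0.832 to 2.93). Their intervals reach past 2-fold, so these counts cannot show that either was stable. Gapdh had 1363 and 1008 counts (0.775, from 0.714 to 0.841) and lay below counting noise, as did Ttr. Nr3c1, the glucocorticoid receptor, had the ratio farthest from 1, with 20 and 38 counts (1.99, from 1.13 to 3.61), and passed 2-fold with protein-coding totals. Of 13 classical reference genes, Hprt was higher with 26 and 52 counts (2.10, from 1.28 to 3.5, under 2-fold with library totals), and actin (Actb) had a ratio of 0.816.

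**Figure D5:**
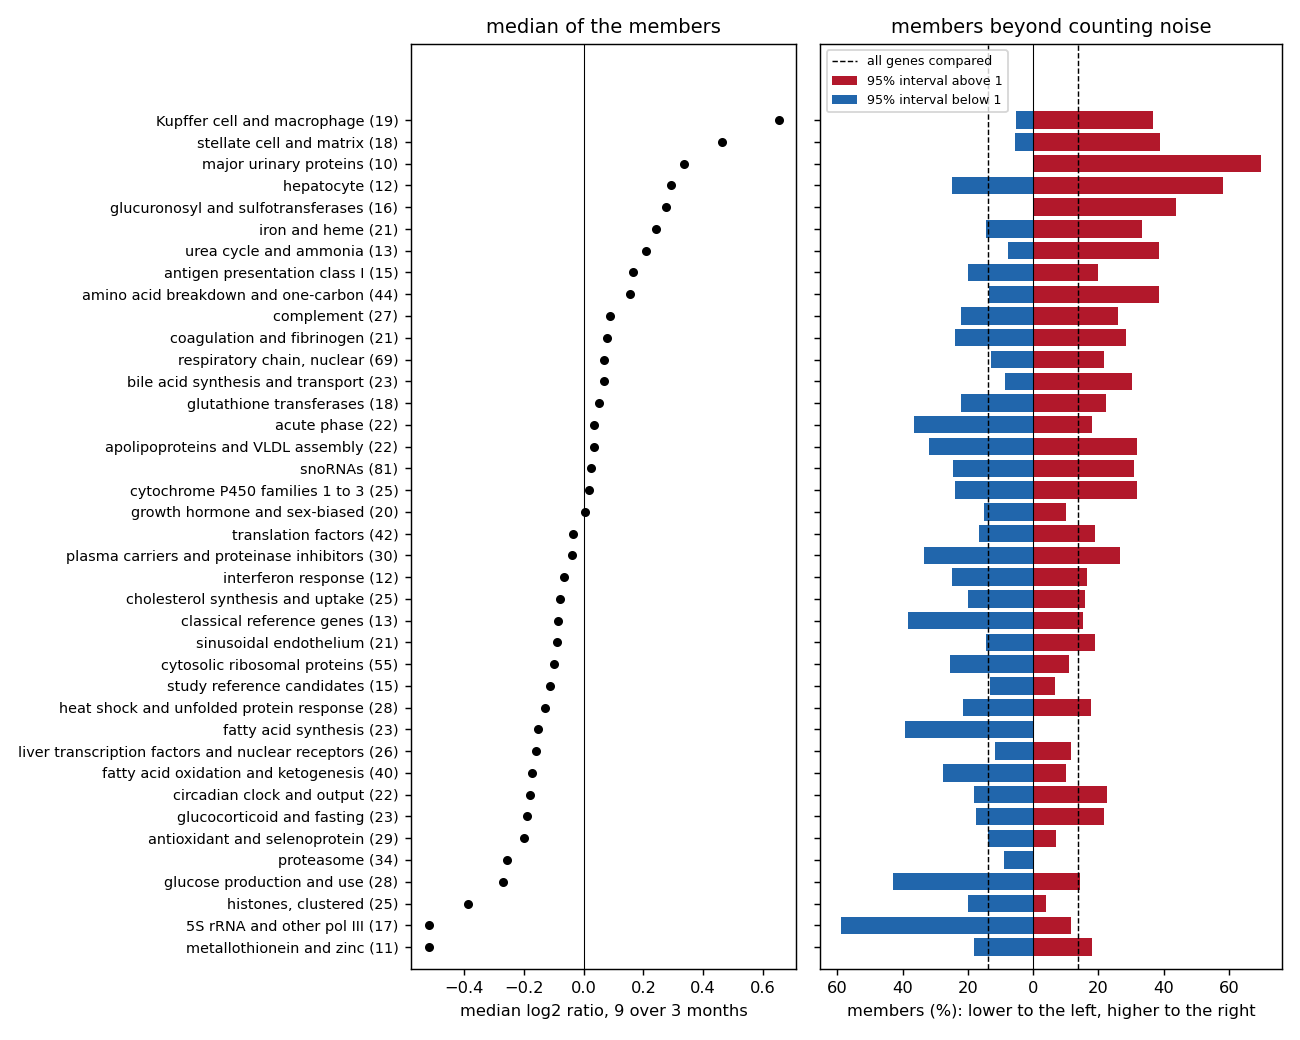
Gene groups with 10 or more genes compared (y axis, number of genes in brackets), with the median log2 ratio of 9 over 3 months on the left and, on the right, the percentage of members whose 95% interval lay above 1 (red, to the right) or below 1 (blue, to the left); dashed lines mark 13.7% and 13.8% over all 5613 genes. Kupffer cell, matrix and urinary protein genes stand at the top, and glucose, histone, polymerase III and zinc genes at the bottom.

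Whether a called gene was unusual in the 9 month or in the 3 month pool was read from all 4 pools. Of the 392 higher genes, the 9 month pool was the highest of the 4 in 272 (69.4%, beside 23.7% of all genes compared) and the 3 month pool the lowest in 280 (71.4%, beside 25.3%). Of the 398 lower genes, the 9 month pool was the lowest in 258 (64.8%, beside 22.6%) and the 3 month pool the highest in 286 (71.9%, beside 24.9%). The choice of the genes favours such shares, so they are given as a description. Mt1 and Mt2 were among the genes with both the highest level at 9 months and the lowest at 3 months. Rpsa, Tkt and AY036118 had their highest level at 3 months, and of these Tkt and AY036118 had their lowest at 9 months.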

How the data were processed

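Gene counts of 4 libraries of mouse liver RNA (3, 9, 15 and 21 months, 1 pool of 24 mice each) were used, and the ages were taken from the labels. The deposited counts are raw, whole numbers of reads per gene symbol: the authors removed uncapped RNA, sequenced 35 bp reads of all pools on one SOLiD lane and mapped them to mm9 with the CLC workbench. HTSeq is named in the submitters' processing notes, and the strand setting is not given in the sources used here. Reads that were not unique (72.2% and 76.7% of alignments at 3 and 9 months) or fell on no gene (19.0% and 15.5%) were not part of the gene counts, and those summary lines were left out.

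Genes with at least 20 counts over the 3 and 9 month pools were compared. TMM factors came from edgeR 4.0.16 (0.952 for the 9 month pool, with 3 months as reference), and ratios were given exact Clopper-Pearson 95% intervals with Python 3.11.15 and scipy 1.17.1. A gene with no count in a pool was set to 3 counts there for medians and bounds. With 1 pool per age edgeR and DESeq2 tests could not be made, so DESeq2 1.42.0 served only for its size factors. The interval calculation was tested on simulated data. Gene positions come from GENCODE M1 on NCBIM37 (33923 of 33924 symbols found), and promoters from RefSeq. The members and the 52 gene lists were chosen with earlier results of these data known.

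Named were up to 15 called genes per direction ranked by the interval bound nearest 1, the called and the 4 most counted members of each list, the 10 most counted genes and the reference genes of the study. Other genes, among them those named for 500 counts or more and Cth, Oat, Csad, Gckr, Igf1, Kng2, Fgg, Mttp, Hbb-b1, Hspa9 and Mtf1, were chosen after their values had been seen. Lists of the mitochondrial genome and of B, plasma and T cells held no gene with enough counts. Some genes are counted in their lists but not reported here. Alternatives were 4 other scalings, 3 count minimums, protein-coding genes alone, and other folds and intervals.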

Additional observations from a re-analysis of the deposited data

How the results depend on the processing

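The counts of 392 higher and 398 lower genes stayed within 1.5 times under 4 other scalings, protein-coding genes alone and fold alone, between 332 and 474 higher and between 371 and 505 lower genes. Library totals gave 332 and 466, with a shift of all log2 ratios of -0.07. The counts moved with the minimum count, to 618 and 617 at 10 counts, 765 and 750 at 1 count and 103 and 126 at 50 counts, and with the call, to 590 and 609 at 1.5-fold, 173 and 165 at 3-fold, 255 and 256 with a 99% interval, and 46 and 53 with the whole interval past 2-fold. These settings test other genes or apply other limits by construction. None of the 139 called genes named by rule or by their counts changed direction under another scaling, and 129 kept the call under every scaling. Those that did not keep it were Ccrn4l, Cfp, Dcn, Eif2b5, Hprt, Ndufa5, Scarna13, Slco1a4, Timd4 and Timp3. Of 441 list medians 5 left the median interval of their members: 0.82 for p53 response genes in place of -0.48 with a minimum of 10 or of 50 counts, 0.09 for major urinary proteins and 0.30 for the study's age-related genes at 1 count, and 0.22 for hepatocyte genes with library totals. The sign changed in 25 of these medians over 13 lists, mostly in medians near 0. Among larger ones, glucocorticoid and fasting genes went from -0.19 to 0.12 at 50 counts and 0.06 at 1 count, clock genes from -0.18 to 0.10 and pancreatic genes from -0.74 to 0.07 at 1 count, and glutathione transferases from 0.05 to -0.09 at 10 counts and at 1 count. The log2 ratios of named genes left their intervals in 38 recalculations. No paired analysis was possible because each age had 1 pool and no replicate numbers. Depth limits genes under 50 counts, where single ratios carry wide intervals.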

Other observations

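The ratios of protein-coding genes went with the base composition of their transcripts, a property that the comparison did not use. In 4 equal classes of increasing GC content the median log2 ratio of 9 over 3 months was 0.09, 0.04, -0.01 and -0.08 over 5383 genes (Spearman's rho -0.105 across genes, which share 2 libraries and are not independent replicates). Over the 816 genes with 200 counts or more rho was -0.211. Transcript length showed no such order (rho -0.0068). With the ratios centred within these classes, an alternative added after the data had been seen, the median of fatty acid synthesis genes was -0.21 in place of -0.15, that of glucose genes -0.26 in place of -0.27, that of amino acid genes 0.15 in place of 0.16 that of Kupffer cell genes 0.62 in place of 0.65, that of glucuronosyl- and sulfotransferases 0.19 in place of 0.27 and that of major urinary proteins 0.25 in place of 0.33. The part of base composition in these results was not tested further.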
